A study of Mus musculus with 24 samples.

Results

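Coch, Otos, Otor, Pou3f4, Emilin2 and Epyc are genes associated with the fibrocytes and matrix of the spiral ligament and spiral limbus of the cochlea. They were followed through every probe set that the array annotation assigns to 1 gene symbol, that of one of these genes. This gave 7 probe sets of 6 genes, among 34958 probe sets with 1 symbol and 18194 genes. Coch, Otos, Otor, Emilin2 and Epyc had 1 probe set each, and Pou3f4 had 2, called the dimmer and the brighter by their mean over all arrays. Total RNA of pooled whole cochleae from α9−/− and wild type mice was hybridized to 24 mouse genome arrays, with 3 pools per genotype at postnatal day 3 (P3), P7, P13 and P60, to follow development across the onset of hearing. The α9−/− mice constitutively lack Chrna9, which encodes the α9 subunit of the nicotinic receptor of the hair cells. Both genotypes were on a hybrid background of 129S6 and CBA/CaJ, backcrossed to CBA/CaJ, and the labels name no treatment. Semicircular canals, auditory nerve and fragments of cerebellum were dissected away. A pool held cochleae of several mice, so p-values measure the spread between pools.

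Fibrocytes line the lateral wall and the limbus. They are coupled by gap junctions and return the potassium that leaves the hair cells to the stria vascularis, and they lay down the matrix that anchors the basilar membrane. Cochlin, the product of Coch, is an abundant secreted matrix protein with LCCL and von Willebrand factor A domains, and its mutations cause the dominant deafness DFNA9. Otospiralin, the product of Otos, is a small secreted protein of these fibrocytes, and Otor encodes otoraplin, a secreted relative of the cartilage protein MIA. Pou3f4 encodes a POU-domain transcription factor of the otic mesenchyme whose loss causes an X-linked deafness. Emilin2 encodes an elastin-associated matrix glycoprotein, and Epyc encodes epiphycan, a small leucine-rich proteoglycan of cartilage and cochlea.

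All 6 genes have promoter windows in the RefSeq table of GRCm38.p6, each 300 bases long and lying mostly upstream of an annotated start. The windows of the 4 genes with 1 annotated start are shown, since they include the genes called between P3 and P60 in both genotypes (Coch, Otos and Otor) and the gene called between genotypes (Pou3f4). Capitals mark the TATA box TATAAA and the CCAAT box CCAAT on either strand, and the POU octamer ATGCAAAT was also searched on both strands. The windows lie at chr12:51593091-51593390 on the plus strand for Coch, chr1:92648792-92649091 on the minus strand for Otos, chr2:143078143-143078442 on the plus strand for Otor and chrX:110814129-110814428 on the plus strand for Pou3f4, and each is printed 5′ to 3′ along its gene.
Coch: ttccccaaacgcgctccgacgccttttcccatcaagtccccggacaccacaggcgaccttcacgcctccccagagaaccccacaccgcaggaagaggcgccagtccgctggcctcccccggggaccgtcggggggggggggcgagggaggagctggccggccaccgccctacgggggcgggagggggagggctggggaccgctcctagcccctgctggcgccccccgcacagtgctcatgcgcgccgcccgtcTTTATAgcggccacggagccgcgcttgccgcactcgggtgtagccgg
Otos: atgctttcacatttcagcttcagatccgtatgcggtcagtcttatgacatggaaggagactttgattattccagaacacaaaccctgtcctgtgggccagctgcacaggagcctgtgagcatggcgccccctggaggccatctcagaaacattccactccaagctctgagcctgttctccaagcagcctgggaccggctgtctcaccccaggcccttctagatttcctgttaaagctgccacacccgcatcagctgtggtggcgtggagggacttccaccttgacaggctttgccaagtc
Otor: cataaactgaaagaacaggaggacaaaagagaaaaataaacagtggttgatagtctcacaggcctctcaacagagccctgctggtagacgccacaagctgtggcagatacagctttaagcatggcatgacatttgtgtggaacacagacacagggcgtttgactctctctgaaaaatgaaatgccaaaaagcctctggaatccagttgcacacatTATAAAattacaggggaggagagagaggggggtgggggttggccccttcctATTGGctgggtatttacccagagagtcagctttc
Pou3f4: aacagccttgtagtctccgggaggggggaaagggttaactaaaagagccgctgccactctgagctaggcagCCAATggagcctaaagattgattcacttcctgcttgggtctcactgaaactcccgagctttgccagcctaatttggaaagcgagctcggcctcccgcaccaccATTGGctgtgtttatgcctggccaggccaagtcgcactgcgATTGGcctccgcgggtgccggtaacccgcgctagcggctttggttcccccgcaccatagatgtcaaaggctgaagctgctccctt
In Otor a TATA box on the gene's strand began at position −35 from the start, and a CCAAT box lay on the opposite strand at 17. Coch held TATAAA only on the opposite strand, at position 4, and Pou3f4 held 3 CCAAT boxes, at −179 on its own strand and at −76 and −35 on the opposite one. Otos held none of the 3 motifs, nor did both windows each of Emilin2 and Epyc, and the octamer was in no window of the 6 genes. Of all 32851 windows in the table, 13.62% held TATAAA, 37.41% held CCAAT and 1.74% held the octamer on either strand. A match is a description of these letters and not evidence of binding.

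Before the members, the arrays were checked. The 3 probe sets of Chrna9 gave log2 signals of 3.24 to 5.94 in α9−/− and 3.47 to 6.33 in wild type, at the low end of the scale in both, and their position relative to the deletion is not stated. As a sign of RNA integrity, 3′ and 5′ control probe sets of the Gapdh transcript were compared, and differed by at most 2.43 on the log2 scale in most arrays and by 6.30 to 7.69 in 5, namely replicate 2 of the α9−/− pools at P3 and, among wild type pools, replicate 1 at P3, replicates 1 and 2 at P13 and replicate 1 at P60. These 5 arrays are called the arrays of low 5′ signal below. At P13 wild type replicate 3 stood at 2.43 and the α9−/− arrays at −0.15 to 0.34. All wild type arrays at P13 thus had a larger difference than every α9−/− array. Genotype and 5′ signal cannot be told apart at that age. Of the otic mesenchyme and spiral ligament markers, 8 of 9 were measured, and the signal summed over them was 14.9 to 15.7 in every array. Gjb6, a connexin of the fibrocyte network, had group means of 10.70 to 12.74, and Tbx18, a transcription factor of the otic mesenchyme, 10.28 to 11.83. The arrays measured whole cochleae, so fewer cells of a type and less RNA per cell cannot be told apart in any of these results.

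Coch and Otos were higher and Otor was lower at P60 than at P3 in both genotypes. Emilin2 was higher at P7 than at P3 and lower at P60 than at P13. Epyc showed no call. Pou3f4 showed none in the direct comparison of P60 with P3, but was called between successive ages in wild type. The largest gain of Otos lay between P3 and P7 and that of Coch between P7 and P13, and the largest loss of Otor in α9−/− lay between P13 and P60. Values per array are the deposited log2 signals. Differences between ages were fitted after all 24 arrays had been brought to 1 common distribution, because the array medians were 6.73 to 6.89 at P13 and at most 6.66 at the other ages. A difference counted as called when it reached 1.5 on the log2 scale with an adjusted p from limma below 0.05.

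**Figure D1:**
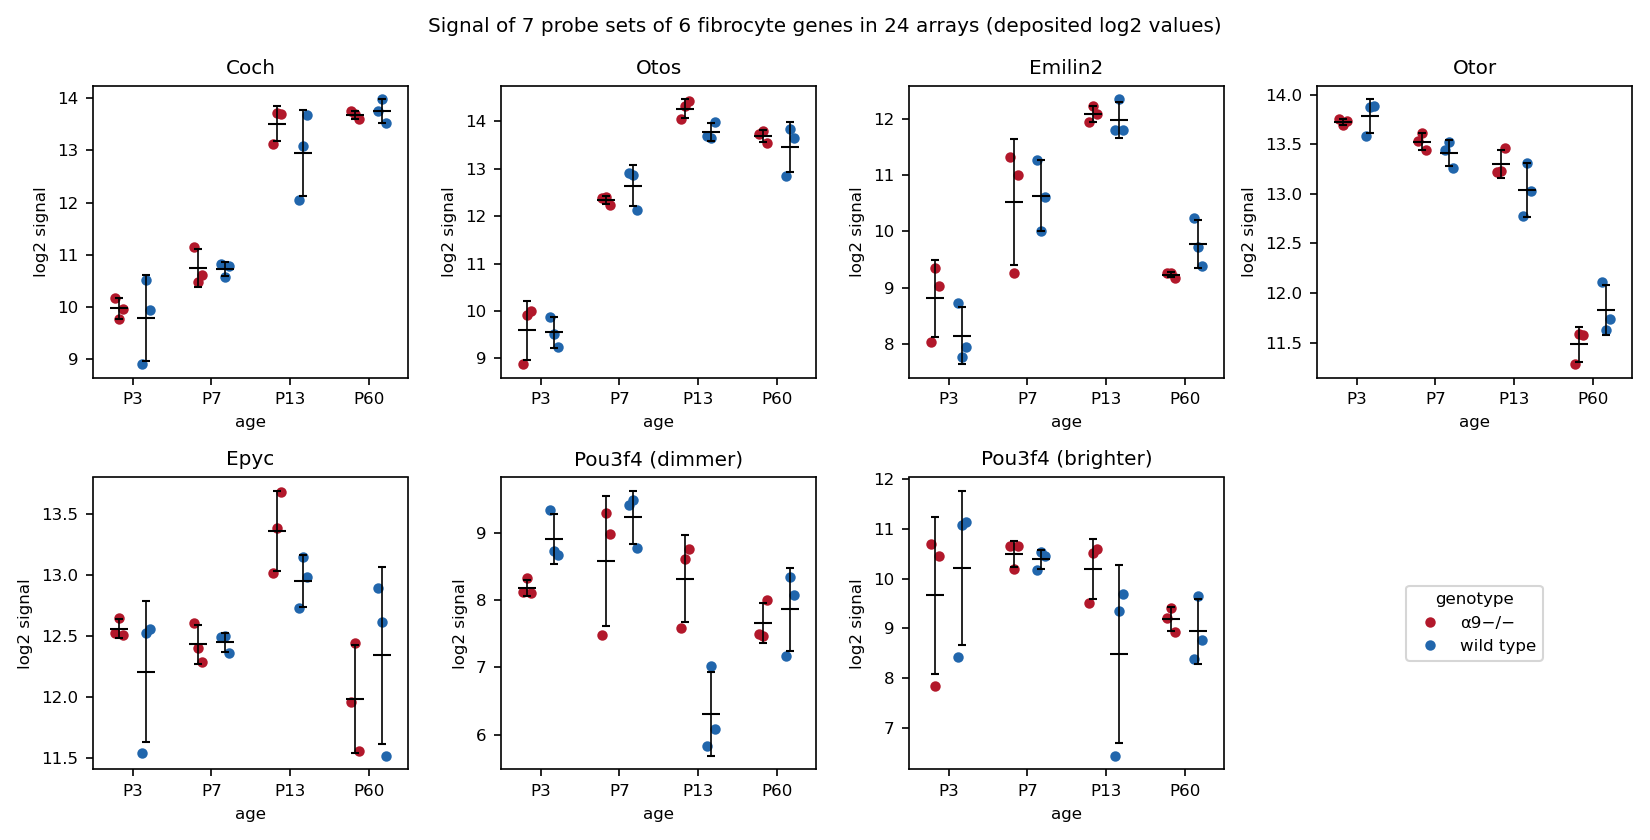
Deposited log2 signal (vertical axis) by age for the 7 probe sets, with 1 point per array, horizontal lines for the mean and bars for ± 1 SD of 3 arrays (α9−/− red, left; wild type blue, right). Coch and Otos were higher at P13 and P60 than at P3 in every array, Otor was lowest at P60, and the dimmer Pou3f4 probe set at P13 was 7.58 to 8.77 in α9−/− and 5.83 to 7.01 in wild type; vertical axes differ between panels and do not start at 0.

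In α9−/− cochleae, Coch had log2 signals of 10.18, 9.77 and 9.96 at P3, followed by 11.16, 10.47 and 10.61 at P7, by 13.13, 13.71 and 13.70 at P13 and by 13.75, 13.69 and 13.60 at P60. In wild type cochleae it had 8.90, 10.51 and 9.94 at P3, followed by 10.82, 10.57 and 10.79 at P7, by 12.05, 13.08 and 13.69 at P13 and by 13.75, 13.98 and 13.52 at P60. Every array at P13 and P60 was above every array at P3 and P7 in both genotypes, and the wild type groups at P3 and P13 were the widest. From P3 to P60 cochlin mRNA signal was 14.3-fold higher in α9−/− (log2 difference 3.84 ± 0.38, SE, adjusted p = 6.9e-07) and 16.6-fold higher in wild type (4.05 ± 0.38, adjusted p = 1.99e-07). Most of this lay between P7 and P13, where the log2 difference was 2.65 ± 0.38 in α9−/− (adjusted p = 0.000214) and 2.03 ± 0.38 in wild type (adjusted p = 0.000917). Between P13 and P60 the difference was 0.51 in α9−/− (adjusted p = 0.457) and 1.17 in wild type (adjusted p = 0.0345, under the fold threshold). Without the arrays of low 5′ signal the last value was 0.38 (adjusted p = 0.51); these arrays were the lower ones of the P13 wild type group. Without P13 wild type replicate 3 it was 1.57 (adjusted p = 0.00978).

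Otos gained signal from P3 through P13. In α9−/− it had 8.88, 9.91 and 9.99 at P3, followed by 12.37, 12.40 and 12.24 at P7, by 14.05, 14.32 and 14.43 at P13 and by 13.74, 13.79 and 13.54 at P60. In wild type it had 9.88, 9.53 and 9.24 at P3, followed by 12.90, 12.87 and 12.14 at P7, by 13.68, 13.65 and 13.99 at P13 and by 12.85, 13.85 and 13.65 at P60. Within each genotype the P3, P7 and P13 groups did not overlap. The otospiralin signal rose 5.96-fold between P3 and P7 in α9−/− (2.58 ± 0.31, adjusted p = 0.000147) and 7.46-fold in wild type (2.90 ± 0.31, adjusted p = 2.04e-05). It rose by a further 1.87 ± 0.31 between P7 and P13 in α9−/− (adjusted p = 0.000694), while the difference was 1.10 ± 0.31 in wild type (adjusted p = 0.0129, under the fold threshold). The 2 genotypes' changes over that interval differed by 0.77 ± 0.43 (adjusted p = 0.432), so a difference in timing was not shown. From P13 to P60 the difference was −0.24 in α9−/− and 0.02 in wild type, and neither passed.

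Emilin2 had its highest values at P13. In α9−/− its log2 signals were 8.05, 9.36 and 9.04 at P3, followed by 11.32, 9.26 and 10.99 at P7, by 11.93, 12.22 and 12.07 at P13 and by 9.27, 9.26 and 9.18 at P60. In wild type they were 8.73, 7.77 and 7.95 at P3, followed by 11.27, 10.01 and 10.62 at P7, by 11.80, 12.34 and 11.79 at P13 and by 10.23, 9.72 and 9.38 at P60. The P13 arrays overlapped with those of no other age in either genotype, and 1 α9−/− array at P7 (9.26) lay within the P3 range. The gain from P3 to P7 was 1.62 ± 0.44 in α9−/− (adjusted p = 0.046) and 2.43 ± 0.44 in wild type (adjusted p = 0.00416). The α9−/− call did not hold when any 1 of its arrays other than P7 replicate 2 was left out (adjusted p of 0.0642 to 0.18), nor with the replicate number as a block (adjusted p = 0.0505). From P7 to P13 the difference was 1.28 in α9−/− (adjusted p = 0.0895) and 1.04 in wild type (adjusted p = 0.0761), and neither passed. The α9−/− step was called on the deposited values as they are (1.55, adjusted p = 0.0303) and without P7 α9−/− replicate 1 (1.65, adjusted p = 0.0474), and ranged from 0.68 to 1.65 with 1 array left out. Without P7 α9−/− replicate 1 it exceeded the gain from P3 to P7, which was then 1.25. Without P3 α9−/− replicate 1 the gain from P3 to P7 was 1.26, also below the 1.28 from P7 to P13. The order of these steps in α9−/− was therefore not settled. From P13 to P60 Emilin2 fell by 2.47 ± 0.44 in α9−/− (adjusted p = 0.000723) and by 1.81 ± 0.44 in wild type (adjusted p = 0.00618). Without the arrays of low 5′ signal the wild type difference was −1.80 (adjusted p = 0.0686). At P60 Emilin2 was 3.16-fold higher than at P3 in wild type (1.66 ± 0.44, adjusted p = 0.0074), and the difference was 0.43 in α9−/− (adjusted p = 0.526). The wild type value dropped below the fold threshold without P3 replicate 2 (1.44) or without P60 replicate 1 (1.43), and the difference between the genotypes' changes did not pass (−1.23 ± 0.62, adjusted p = 0.879).

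Otor was the member called lower at P60 than at P3. In α9−/− it had 13.76, 13.69 and 13.73 at P3, followed by 13.53, 13.62 and 13.44 at P7, by 13.22, 13.23 and 13.46 at P13 and by 11.28, 11.58 and 11.58 at P60. In wild type it had 13.58, 13.88 and 13.89 at P3, followed by 13.44, 13.52 and 13.26 at P7, by 12.77, 13.31 and 13.03 at P13 and by 12.11, 11.63 and 11.74 at P60. All P60 arrays lay below all younger arrays. Otoraplin signal was 4.20-fold lower at P60 than at P3 in α9−/− (−2.07 ± 0.23, adjusted p = 2.5e-06) and 3.34-fold lower in wild type (−1.74 ± 0.23, adjusted p = 1.23e-05). In α9−/− the fall lay mainly between P13 and P60, where the log2 difference was −1.53 ± 0.23 (adjusted p = 0.000174). In wild type it was −0.85 ± 0.23 over that interval (adjusted p = 0.0123, under the fold threshold), after −0.50 from P3 to P7 and −0.38 from P7 to P13. Leaving out P13 α9−/− replicate 3 or P60 α9−/− replicate 1 brought the α9−/− value to −1.44 or −1.43, under the fold threshold, with the adjusted p still under 0.05.

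Epyc was called at no step between ages. In α9−/− it had 12.53, 12.65 and 12.50 at P3, followed by 12.61, 12.40 and 12.29 at P7, by 13.02, 13.39 and 13.68 at P13 and by 11.96, 12.44 and 11.56 at P60. In wild type it had 11.54, 12.53 and 12.56 at P3, followed by 12.49, 12.50 and 12.36 at P7, by 12.73, 13.14 and 12.99 at P13 and by 12.89, 12.61 and 11.52 at P60. Its mean was highest at P13 in both genotypes, and the P60 groups were wide. Epyc fell outside the variance filter of the age fits and was tested without it. The most extreme step was −1.04 ± 0.32 from P13 to P60 in α9−/− (adjusted p = 0.0595), against −0.21 ± 0.32 in wild type (adjusted p = 0.72).

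The counts are read against all 18041 probe sets tested. Between P3 and P60, 3 of 6 member probe sets in the filter were called in α9−/− (Coch, Otos and Otor), where 11.1% of all probe sets were, and 4 of 6 in wild type (with Emilin2), where 11.5% were. Between P3 and P7, 2 of 6 were called in α9−/− and in wild type (Otos and Emilin2), against 1.89% and 1.37% of all. Between P7 and P13, 2 of 6 were called in α9−/− (Coch and Otos) against 2.58% of all, and 3 of 6 in wild type (Coch and both probe sets of Pou3f4) against 13.2% of all. Between P13 and P60, 2 of 6 were called in α9−/− (Otor and Emilin2) against 7.28% of all, and 2 of 6 in wild type (Emilin2 and the dimmer Pou3f4 probe set) against 8.78% of all. The members were put together for their cell type and prior interest, so these shares describe them and test nothing about them. None of the members differed between genotypes in its change with age by limma, where 0 of all probe sets passed in any interval. At an unadjusted p under 0.05, 1 member probe set differed from P7 to P13 and 1 from P13 to P60, both times the dimmer Pou3f4 probe set. Of all 18041 probe sets, 1470 were higher and 838 lower at that p from P7 to P13. From P13 to P60, 372 were higher and 474 lower.

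**Figure D2:**
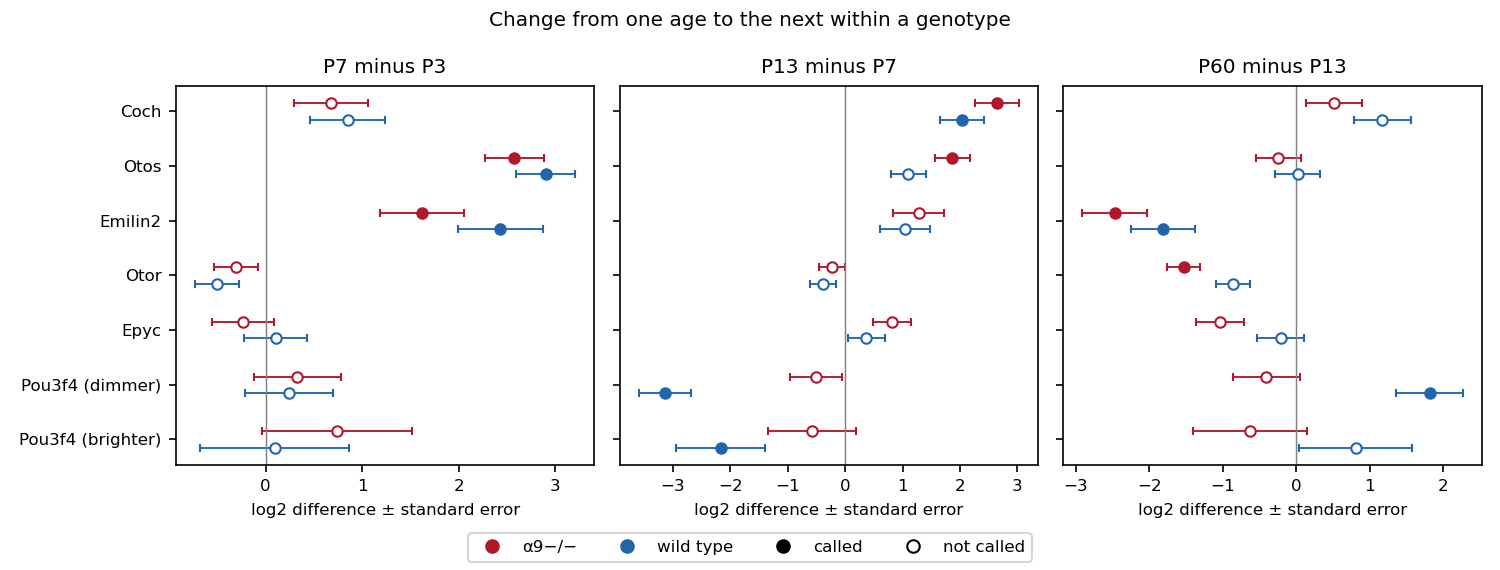
Log2 difference ± SE from each age to the next (horizontal axis) for each probe set, in α9−/− (red, upper) and wild type (blue, lower), with filled points for called differences. Otos and Emilin2 were called from P3 to P7 in both genotypes, Coch from P7 to P13 in both, and the dimmer Pou3f4 probe set from P7 to P13 in wild type (−3.14) but not in α9−/− (−0.51).

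Pou3f4 was called between successive ages in wild type and at no step in α9−/−. For the dimmer one, α9−/− arrays had 8.12, 8.32 and 8.10 at P3, followed by 7.48, 9.29 and 8.98 at P7, by 7.58, 8.61 and 8.77 at P13 and by 7.50, 7.47 and 8.01 at P60. Wild type arrays had 9.34, 8.73 and 8.67 at P3, followed by 9.42, 9.50 and 8.77 at P7, by 5.83, 7.01 and 6.08 at P13 and by 7.17, 8.34 and 8.07 at P60. The wild type group at P13 was the lowest of all and lay apart from its neighbours in age, while the α9−/− groups overlapped from P7 through P60. In wild type the signal fell by 3.14 ± 0.45 between P7 and P13 (adjusted p = 7.09e-05) and was higher again at P60 than at P13 by 1.82 ± 0.45 (adjusted p = 0.00766). The last call missed without P13 wild type replicate 1 (1.52, adjusted p = 0.052). In α9−/− the differences were −0.51 ± 0.45 and −0.41 ± 0.45 over these intervals (adjusted p = 0.605 and 0.679). The genotypes' changes differed by 2.63 ± 0.64 from P7 to P13 (adjusted p = 0.281) and by −2.22 ± 0.64 from P13 to P60 (adjusted p = 0.993), and neither passed over all probe sets.

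The brighter probe set had 10.68, 7.84 and 10.46 in α9−/− at P3, followed by 10.65, 10.19 and 10.65 at P7, by 9.50, 10.50 and 10.58 at P13 and by 9.21, 9.42 and 8.93 at P60. In wild type it had 8.43, 11.08 and 11.13 at P3, followed by 10.17, 10.54 and 10.46 at P7, by 6.45, 9.34 and 9.68 at P13 and by 8.39, 9.66 and 8.78 at P60. The single low arrays at P3 and the lowest at P13 and at P60 in wild type were all arrays of low 5′ signal. Relative to the rest of their groups the arrays of low 5′ signal stood at −2.73 in P3 α9−/− and −2.67 in P3 wild type. They stood at −1.79 in P13 wild type (mean of 6.45 and 9.34, against 9.68) and at −0.83 in P60 wild type. For the dimmer probe set the same differences were 0.21, 0.64, 0.34 and −1.03. Of all probe sets, those differences of the brighter probe set stood at percentiles 3.27, 4.38, 4.67 and 28.2. The differences of the dimmer probe set stood, in the same order of groups, at percentiles 54.6, 75.4, 76.1 and 23.98. The part of the low 5′ signal in the Pou3f4 results was not tested beyond leaving those arrays out. For the brighter probe set the wild type step from P7 to P13 was −2.17 ± 0.77 (adjusted p = 0.0404), and −1.07 (adjusted p = 0.107) without these arrays. It also missed without P13 replicate 1 alone (−1.20) and without any 1 of the P7 wild type arrays (−2.30 to −2.07), without the variance filter (adjusted p = 0.0686), or on the deposited values as they are (−1.90, adjusted p = 0.0695). From P3 to P60 in wild type it was −1.27 ± 0.77 (adjusted p = 0.251), and −1.89 (adjusted p = 0.00137) without them, or −2.16 (adjusted p = 0.0372) without P3 wild type replicate 1.

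**Figure D3:**
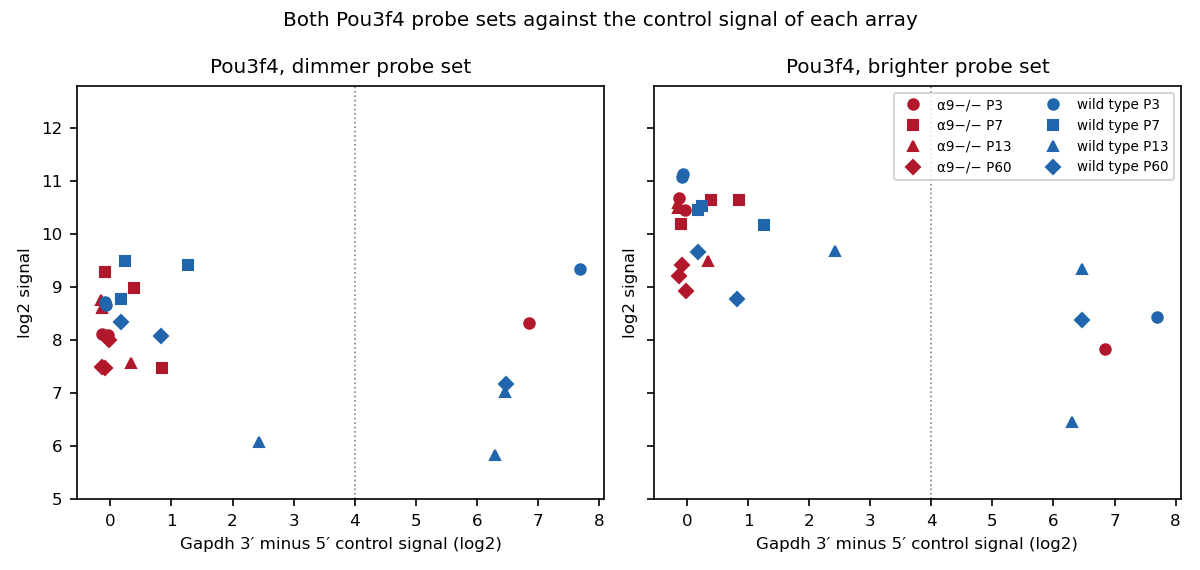
Log2 signal of each Pou3f4 probe set (vertical axis) against the 3′ minus 5′ difference of the Gapdh control probe sets (horizontal axis, log2), with 1 point per array, colour for genotype and shape for age; the dotted line is the limit of 4. The 5 arrays to its right had 5.83 to 9.34 for the dimmer probe set and 6.45 to 9.34 for the brighter probe set.

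Comparing α9−/− with wild type within an age asked whether loss of the receptor subunit was accompanied by a change in these genes. Pou3f4 was the 1 member called, at P13 and through 1 of its probe sets. At P13 the dimmer probe set was 7.58, 8.61 and 8.77 in α9−/− and 5.83, 7.01 and 6.08 in wild type, with no overlap, and was 4.03-fold higher in α9−/− (2.01 ± 0.43, SE, 95% interval 1.00 to 3.02, adjusted p = 0.029). The wild type values of 5.83 and 6.08 lay below the array medians of that age (6.73 to 6.89), so the size of the fold is uncertain. The call is 1 of 7 member probe sets, where 7.06% of all probe sets were called at that age, and 2 of 7 did not overlap between genotypes (with Otos), where 41.9% of all did not. The brighter probe set was 9.50, 10.50 and 10.58 in α9−/− and 6.45, 9.34 and 9.68 in wild type (1.71 ± 0.81, 95% interval −0.19 to 3.60, adjusted p = 0.165). The lowest α9−/− array lay below the highest wild type array for that probe set.

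The Pou3f4 call rested on few arrays, and at P13 genotype and 5′ signal cannot be told apart. Leaving out the arrays of low 5′ signal does not separate them. The wild type array then kept, replicate 3, had a Gapdh difference of 2.43, above the −0.15 to 0.34 of the α9−/− arrays. Without both arrays of low 5′ signal, the difference was 2.24 for the dimmer probe set and 0.51 for the brighter probe set. That setting leaves 1 wild type array at P13, assumed to vary like the α9−/− group, so only the sizes are given. The call of the dimmer probe set was lost without wild type replicate 1 (1.77, adjusted p = 0.0595) or 2 (2.36, adjusted p = 0.0527), and without α9−/− replicate 2 (1.86, adjusted p = 0.105) or 3 (1.79, adjusted p = 0.118). Poly-A control transcripts were present on replicate 1 and absent from replicates 2 and 3 of both genotypes at P13. The difference for the dimmer probe set was 1.75 between the arrays with them (1 against 1) and 2.14 between those without (2 against 2), and for the brighter probe set it was 3.05 with and 1.03 without. With poly-A control presence as a block, an alternative chosen after seeing the data, the brighter probe set was also called (1.71, adjusted p = 0.0372). Pou3f4 is also expressed in the brain, and the summed signal of 7 cerebellar neuron markers at P13 was 11.01 to 11.62 in α9−/− and 11.20 to 13.08 in wild type, with 0 of 7 called. Its part in the Pou3f4 difference was not tested. The nearest relatives had at P13 log2 differences of 0.06 for Pou3f1, 0.14 for Pou3f2 and −0.22 for Pou3f3. These 3 factors lay outside the variance filter, so no call was possible for them.

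The matrix genes were not called at any age, and their intervals give the size of difference these arrays leave possible. At P13, Coch was 13.51 ± 0.33 in α9−/− and 12.94 ± 0.83 in wild type (SD, n = 3), a difference of 0.57 with an interval of −0.43 to 1.58. Otos was 14.26 ± 0.20 in α9−/− and 13.77 ± 0.19 in wild type (SD, n = 3), a difference of 0.49 with an interval of −0.08 to 1.06, and its groups did not overlap. Emilin2 differed by 0.10 (interval −0.51 to 0.71), Otor by 0.26 (−0.32 to 0.85) and Epyc by 0.41 (−0.23 to 1.04). All 7 member probe sets, 2 of them of Pou3f4, had higher means in α9−/− at P13, with a median difference of 0.49 against −0.05 over all probe sets tested. The share of all probe sets that were higher was not counted, so the common direction is not shown to be particular to the members. By limma at an unadjusted p under 0.05, 3841 of all 18041 were higher and 2884 lower. Of the members, only the dimmer Pou3f4 probe set was among them. The positive value of Coch turned to −0.17 without the arrays of low 5′ signal. For all members, genotype and 5′ signal cannot be told apart at P13.

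At P3, P7 and P60 limma called 0 of 7 member probe sets. The shares of all probe sets called were 0% at P3, 0.0111% at P7 and 0% at P60. Of all 18041 tested, 156 were higher and 160 lower in α9−/− at an unadjusted p under 0.05 at P3. The same counts were 160 and 107 at P7 and 808 and 292 at P60. At that p, 1 member probe set differed at P3 and 0 at P7 and P60. That member was the dimmer Pou3f4 probe set, with 8.12, 8.32 and 8.10 in α9−/− below 9.34, 8.73 and 8.67 in wild type (−0.73 ± 0.31, interval −1.45 to −0.01). It was the 1 of 7 without overlap at P3, where 5.78% of all probe sets did not overlap. At P60 the groups of Otor (11.28 to 11.58 in α9−/− and 11.63 to 12.11 in wild type, difference −0.35, interval −1.12 to 0.43) and Emilin2 (9.18 to 9.27 in α9−/− and 9.38 to 10.23 in wild type, difference −0.54, interval −1.37 to 0.28) did not overlap, and 11.7% of all probe sets did not. At P7 all 7 overlapped, where 4% of all did not, and the widest interval was that of Emilin2, from −1.45 to 1.23. The other differences at these ages lay between −0.65 and 0.66.

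**Figure D4:**
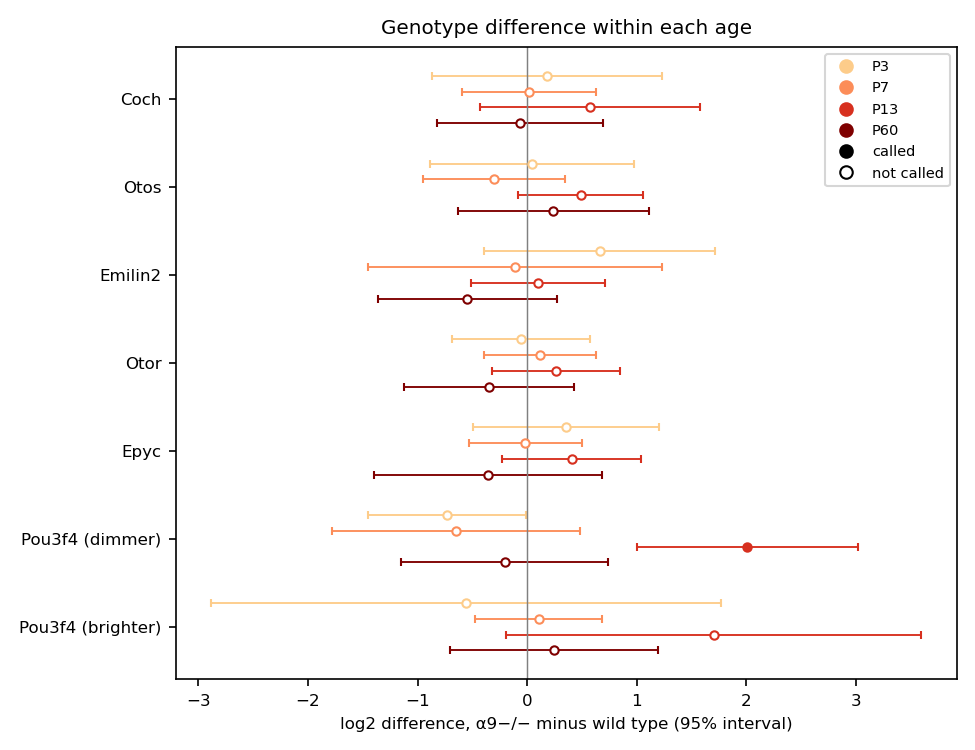
Log2 difference, α9−/− minus wild type, with its 95% interval (horizontal axis) for each probe set at each age, with ages from P3 (upper, pale) to P60 (lower, dark). The filled point is the 1 called difference, the dimmer Pou3f4 probe set at P13 (2.01); the intervals of the matrix genes all include 0.

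Families of the 6 genes were set beside them over the whole interval from P3 to P60, where 11.1% of all probe sets tested were called in α9−/− and 11.5% in wild type. List genes outside the variance filter could not be called and are not shown to be unchanged. The filter held 7 cochlin relatives, 3 genes of the EMILIN and multimerin family, 1 of the MIA family, 7 proteoglycans and 6 ligament markers. Among 7 relatives of cochlin with LCCL or von Willebrand factor A domains, 4 were called lower in α9−/− and 3 in wild type, and 0 higher, with a median of −2.31 in α9−/− and −1.82 in wild type against medians over all probe sets of −0.06 in α9−/− and −0.04 in wild type. The members called in both genotypes were the matrilins Matn1 (−5.94 in α9−/− and −4.28 in wild type) and Matn4 (−2.89 in α9−/− and −3.94 in wild type), filament-forming proteins of cartilage matrix, and Crispld1 (−2.31 in α9−/− and −1.95 in wild type). At P13 Matn4 was also called between genotypes by limma, higher in α9−/− (1.96 ± 0.43, adjusted p = 0.0303). It was the 1 such call among these 7 (6 in the filter of that fit), where 7.06% of all probe sets were called. Genotype and 5′ signal cannot be told apart at P13. Matn1 is also one of the cartilage markers below. In the EMILIN and multimerin family, 2 of 4 were called in each genotype. Emilin1 was lower at P60 (−2.27 in α9−/− and −2.43 in wild type) and Mmrn1, multimerin of platelets and endothelium, was higher in both genotypes (1.84 in α9−/−). Of 3 MIA family members, Mia, listed under its older name Mia1, was called lower (−2.99 in α9−/− and −2.58 in wild type), as was Otor itself. Of 11 small leucine-rich proteoglycans, Aspn, asporin, was called lower in both genotypes (−1.83 in α9−/− and −2.04 in wild type) and Prelp, prolargin, higher in wild type (1.83). Of 8 measured otic mesenchyme and spiral ligament markers, Gjb6 was called higher in both genotypes (1.78 in α9−/− and 2.15 in wild type) and Tgfbi, a matrix protein induced by TGF-β, lower in both (−1.56 in α9−/− and −1.58 in wild type), with Tbx18 also lower in α9−/− (−1.50).

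The genes most alike in profile to each member were found by Pearson correlation over the 24 arrays, among 9652 genes in the variance filter. The arrays share 4 ages, so these values are descriptions. Coch was followed most closely by Apod, apolipoprotein D (r = 0.98), Dnase1, S100b, Slc13a4 and Atp1b1 (r = 0.95), the last a sodium pump subunit. Otor was closest to its relative Mia (r = 0.95), then Nid2, Col9a1, Col9a3 and Adamts9 (r = 0.94), of which Col9a1 and Col9a3 are chains of a cartilage collagen. Otos was closest to Ngp (r = 0.97), S100a8, S100a9, Fam178b and Camp (r = 0.96), of which Ngp, S100a8, S100a9 and Camp are neutrophil granule or cytoplasmic proteins. Emilin2 was closest to Col4a3 (r = 0.95), Tfr2, Vpreb1, Blvrb and Gfi1b (r = 0.91), and Tfr2, Blvrb and Gfi1b are expressed in the red cell lineage. The brighter Pou3f4 probe set was closest to Alg10b (r = 0.93), Tia1, Proser1, Wdr5b and Tbc1d23 (r = 0.89). This probe set also varied widely within groups, with arrays of low 5′ signal far below the others at P3. The part of those arrays in this likeness was not tested. Epyc had no close match, with Cep57 (r = 0.75) first, then Rock1, Gjd2, Tank and Pnrc2 (r = 0.72). Among the members themselves, Coch correlated with Otos (r = 0.85) and inversely with Otor (r = −0.81), and the 2 Pou3f4 probe sets with each other at r = 0.58.

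Markers of other tissues moved along with these profiles. The signal summed over 6 erythroid and neutrophil markers was 11.47 to 11.74 at P3, 13.54 to 13.98 at P7, 15.26 to 15.34 at P13 and 14.89 to 15.19 at P60 in α9−/−, and 10.74 to 12.11, 14.06 to 14.41, 15.64 to 15.87 and 14.99 to 15.22 at the same ages in wild type. From P3 to P60, 5 of the 6 were called higher in α9−/− and 4 in wild type, among them S100a8 (3.71 in α9−/− and 4.20 in wild type) and Mpo (4.22 in α9−/− and 5.09 in wild type). The profile of Otos and, up to P13, that of Emilin2 ran the same way. The summed signal of 8 cartilage markers was 14.85 to 15.37 at P3, 15.04 to 15.41 at P7, 14.93 to 15.04 at P13 and 12.09 to 12.24 at P60 in α9−/−, and 14.62 to 15.13, 15.27 to 15.43, 14.28 to 14.89 and 12.28 to 12.95 in wild type. Of these 8, 5 were called lower from P3 to P60 in α9−/− and 4 in wild type, with Col2a1 at −4.02 in α9−/− and −4.18 in wild type. The fall of Otor ran beside that of the cartilage markers. Oc90, an otoconial matrix protein and the 1 measured of 2 vestibular and otoconial markers, was also called lower from P3 to P60 (−5.91 in α9−/− and −6.28 in wild type). Of 6 measured hair cell markers, 3 were in the variance filter and could be called, and 0 were called in either genotype. Stria vascularis markers, which neighbour the ligament, included 2 of 8 called higher in each genotype, Dct (2.17 in α9−/− and 2.23 in wild type) and Atp1b2 (1.57 in α9−/− and 1.77 in wild type), beside the gain of Coch. Of these 8 markers, 5 were in the variance filter. From P13 to P60, where Emilin2 and Otor were lower, 7 of 7 cerebellar neuron markers were called higher in α9−/− and 1 in wild type (median 4.41 in α9−/− and 1.19 in wild type), and so were 5 of 5 skeletal muscle markers in α9−/− and 1 in wild type (median 3.42 in α9−/− and 1.91 in wild type). Over the same interval 2 of 4 measured osteoblast markers were called lower in each genotype (median −1.56 in α9−/− and −1.49 in wild type), and of 6 general fibroblast markers 0 were called lower in α9−/− and 2 in wild type, namely the collagen chains Col1a1 and Col3a1 (median −0.91 in α9−/− and −1.25 in wild type). Of these 6 markers, 3 were in the variance filter. At P60 the signal summed over the cerebellar markers was 12.83 to 14.79 in α9−/− and 11.49 to 13.73 in wild type, and over the muscle markers 13.06 to 14.92 in α9−/− and 11.90 to 14.96 in wild type. The share of all probe sets called from P13 to P60 was 7.28% in α9−/− and 8.78% in wild type. The part of these tissues in the results for Otos, Emilin2, Otor and Coch was not tested.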

How the data were processed

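Affymetrix mouse genome arrays measured the total RNA of cochlear pools, with 3 pools for each genotype at each age. The deposited values are log2 signals that the authors made from the array scans in R with AffyPLM, which corrected background by RMA, normalized by quantiles and summarized probes by Tukey biweight. Values were used as deposited within an age, and after quantile normalization over all 24 arrays between ages. Groups and replicate numbers come from the labels. limma 3.58.1 in R 4.3.3 was fitted to the most variable 40% of probe sets (18041), with 1 fit per age for genotype and 1 over all arrays for age and its interaction. P-values were adjusted by Benjamini-Hochberg, and a call needed a log2 difference of at least 1.5 and an adjusted p below 0.05. The fits were tested on simulated data. All probe sets of the 6 genes are named. In lists a gene is represented by its brightest probe set, and at most 4 called members are named. A list gene outside the variance filter could not be called. Figures and promoter searches used Python 3.11.15, numpy 2.4.6, pandas 2.3.3 and matplotlib 3.10.9. The members and lists were chosen with earlier results of these data known. Alternatives covered the filter, the fold threshold, centring, normalization, the replicate number as a block, leaving out each array or the arrays of low Gapdh 5′ signal, and, added after seeing the data, poly-A control presence as a block. At no age did all same-numbered pools vary together, so no block was used. The 932 probe sets with several symbols and the 9211 with none given were tested but not named. The number of arrays limits the precision.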

Additional observations from a re-analysis of the deposited data

Results flagged for a closer look

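The dimmer probe set of Pou3f4 drew attention because its genotype difference had opposite signs at 2 ages, in every array. At P3 all α9−/− arrays (8.10 to 8.32) were below all wild type arrays (8.67 to 9.34), and at P13 all α9−/− arrays (7.58 to 8.77) were above all wild type arrays (5.83 to 7.01). Of all probe sets, 5.78% did not overlap between genotypes at P3 and 41.9% at P13, where genotype and 5′ signal cannot be told apart. The change from P3 to P13 in α9−/− minus that in wild type was 2.72 ± 0.64 on the log2 scale (SE), which did not pass in limma over all probe sets (adjusted p = 0.165). No other member probe set showed such a change of sign. Groups of 3 arrays are too small for a search for single outlying arrays.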

How the results depend on the processing

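Of 226 recomputed counts of called members, 207 stayed within 1.5 times the value reported, 17 were lower and 2 higher. Many of the 207 were counts of 0 that stayed 0, in comparisons where at most 2 of all 18041 probe sets were called. Those counts had little room to change, so the 207 do not measure how stable the calls were. At P13 between genotypes (1 reported) the count was 0 without the arrays whose Gapdh 5′ signal was low, 2 (both Pou3f4 probe sets) with poly-A control presence as a block, and 0 to 1 when 1 array was left out. From P3 to P7 in α9−/− (2 reported) it was 1 without the variance filter, 1 with arrays centred on their medians and 1 with the replicate number as a block, and 1 to 2 with 1 array left out. From P13 to P60 it was 1 to 2 in α9−/− with 1 array left out, and in wild type (2 reported) it was 4 without the fold threshold, 1 without the arrays of low 5′ signal and 1 to 3 with 1 array left out. From P7 to P13 in wild type (3 reported) it was 2 to 3 with 1 array left out, a fall within the limit of 1.5 times. The call lost there was that of the brighter Pou3f4 probe set. The block changed no other count beyond that limit. Correlations of the deviations of same-numbered pools from their group means were −0.56, −0.70 and 0.52 in the P3 pairs. The P7 pairs had 0.14, 0.63 and −0.08, the pairs of P13 had 0.33, 0.15 and 0.0055, and those of P60 had 0.17, −0.10 and 0.49, so at no age did all 3 pairs pass 0.1. With 3 arrays a group, small differences have no settled sign. Among single probe sets, 45 of the recomputed values changed sign, all of differences that had not been called. Without the arrays of low 5′ signal the genotype difference became −0.16 for Coch and −0.028 for Epyc at P3, −0.17 for Coch at P13, and −0.059 for Otos and −0.034 for the brighter Pou3f4 probe set at P60. For the brighter Pou3f4 probe set the same setting gave −0.19 in α9−/− and −0.80 in wild type from P3 to P7 and −0.022 in wild type from P13 to P60, and for the dimmer Pou3f4 probe set it gave a difference between the genotypes' changes of −0.082 from P3 to P7 and −0.0040 from P3 to P60. Otos from P13 to P60 in wild type was −0.16 with centred arrays and −0.33 on the deposited values. With 1 array left out, genotype differences ranged at P3 from −0.26 to 0.55 for Coch, −0.15 to 0.40 for Otos and −1.45 to 0.36 for the brighter Pou3f4 probe set, and at P7 from −0.19 to 0.16 for Coch, −0.51 to 0.52 for Emilin2, −0.11 to 0.054 for Epyc and −0.0030 to 0.26 for the brighter Pou3f4 probe set. At P60 they ranged from −0.18 to 0.047 for Coch, −0.059 to 0.44 for Otos, −0.55 to 0.036 for the dimmer Pou3f4 probe set and −0.034 to 0.60 for the brighter Pou3f4 probe set. From P3 to P7 in α9−/− the dimmer Pou3f4 probe set ranged from −0.052 to 0.90 and the brighter Pou3f4 probe set from −0.19 to 1.26, and in wild type the brighter Pou3f4 probe set ranged from −0.80 to 0.56. From P3 to P60 in α9−/− the brighter Pou3f4 probe set ranged from −1.39 to 0.050. From P13 to P60 in wild type Otos ranged from −0.15 to 0.30 and the brighter Pou3f4 probe set from −0.16 to 1.36. The difference between the genotypes' changes from P3 to P7 ranged from −0.30 to 0.66 for the dimmer Pou3f4 probe set and −0.28 to 1.54 for the brighter Pou3f4 probe set, and from P3 to P60 from −0.13 to 1.69 for the brighter Pou3f4 probe set. The cause of these changes was not tested.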

Other observations

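Beside the fibrocyte genes, 5 of 6 markers of supporting cells and of the interdental cells of the limbus were measured. In the variance filter were 4 for the age fits and 3 for the genotype fits. From P3 to P60, 2 of the 5 markers were called lower in each genotype and 0 higher, where 11.1% of all probe sets tested were called in α9−/− and 11.5% in wild type. These were Tecta (−3.79 in α9−/− and −3.77 in wild type) and Tectb (−5.32 in α9−/− and −4.96 in wild type), which encode the tectorins of the tectorial membrane. At P13, 0 of the measured 5 were called between genotypes.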
